A study of Mus musculus with 6 samples.

Results

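The fast skeletal muscle genes are 10 genes of the contraction, calcium handling and energy supply of fast-twitch muscle fibres, *Mylpf*, *Tnnt3*, *Acta1*, *Ckm*, *Tnni2*, *Tnnc2*, *Myh1*, *Myh4*, *Atp2a1* and *Pvalb*. They were taken by gene symbol from the deposited table of read counts, which lists 55341 genes, and each of the 10 symbols matched 1 row. The question was whether *Mylpf* and *Tnnt3*, which had been picked because they differed between the genotypes, followed the other 8 genes over the 6 libraries. Values of the difference between genotypes are therefore given for the members as a description, and no test of it is read for them.

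RNA was sequenced from vessels of 3 miRNA-26b-/- mice, in libraries M2626, M2627 and M2628, and of 3 miRNA-26b+/+ mice, in libraries M2629, M2630 and M2631, called knockout and wild type hereafter. Both genotypes carry the strain label C57BL/6NCrl, and the study's methods give a C57BL/6 background, a normal laboratory diet and the aortic arch with thoracic aorta as tissue. The sequenced mice were 8 weeks old. The allele was targeted in embryonic stem cells of the 129/Sv line R1/E, was deleted by tamoxifen through CreERT2, and lacks both mature products of miRNA-26b, while the Cre gene was bred out. The labels name 1 library per sample and give no pairing, batch, sex or litter, so the spread between libraries is the only error measured.

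The labels call the samples endothelial cells of the aorta, while genes of smooth muscle were far above those of endothelium. Levels are given as CPM, counts per 1000000 counts of the library, whose total is scaled by the TMM factor for composition. The summed level of 11 vascular smooth muscle genes was 36541 to 49707 CPM over the 6 libraries, against 520 to 1772 CPM for 8 endothelial genes. *Acta2*, the actin of smooth muscle, reached 14188 to 18289 CPM, and the endothelial adhesion gene *Pecam1* 174 to 716 CPM. The libraries held 25706728 to 33345037 counts. The hairpin of miRNA-26b had 0 counts in 5 libraries and 20 counts in M2630, so it hardly checks the genotype labels at this depth. Its host gene *Ctdsp1* had 148 to 201 CPM. Among the libraries, M2627 and M2630 held the most reads of cardiac and sympathetic neuron genes, M2626 and M2627 the lowest summed level of endothelial genes and M2628 the most of fibroblast genes, so values are given with and without the knockout libraries in turn. In such bulk samples, fewer cells of a type and less RNA per cell cannot be told apart.

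Fast-twitch fibres contract by sliding thick filaments of myosin along thin filaments of actin. Calcium released into the fibre binds troponin C, which relieves the inhibition by troponin I, while troponin T ties the complex to tropomyosin, and the calcium is then pumped back into the sarcoplasmic reticulum. Fast isoforms of these proteins are known from limb and trunk muscle, while the smooth muscle of the aorta uses other actin, myosin and regulatory proteins and has no troponin complex.

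The mature products removed in the miRNA-26b-/- mice are shown with their seeds, bases 2 to 8, in capitals, as given by RefSeq for GRCm38.p6, because sites for the seed of the 5p product were searched in the members. The 5p product lies on the forward strand at chr1:74394324-74394344.
mmu-miR-26b-5p: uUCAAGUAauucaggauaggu
mmu-miR-26b-3p: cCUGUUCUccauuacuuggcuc
In the longest annotated 3′ UTR of each member, between 100 bases in *Tnni2* and 1455 bases in *Ckm*, 1 member held a match to the 5p seed. *Acta1* had 1 site of the letters ACTTGAA, complementary to bases 2 to 7 and followed by an A, at position 204 of its UTR of 240 bases. It is shown here with the letters of the 6-base core in capitals.
Acta1 site: aggaaatggaaaACTTGAagcattaaagcc
This 7-base match occurred in 14.6% of the 21173 genes with an annotated 3′ UTR, and the 6-base core ACTTGA in 32.7%. *Mylpf* and *Tnnt3* held none of these letters in UTRs of 103 and 178 bases, and a match is a description of the sequence, not a shown binding site.

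The data showed a split within the family. *Mylpf* and *Tnnt3* were counted in all 3 knockout libraries and were at or near 0 in all 3 wild-type libraries, whereas the other 8 members were counted mainly in M2626 and M2627 and were at 0 to 9 counts in M2628. In M2628, *Mylpf* and *Tnnt3* together made up 95.4% of the members' counts, against 17.8% in M2626 and 8.54% in M2627. The 8 others summed to 952, 3631 and 11 counts in M2626, M2627 and M2628, and to 207, 389 and 133 counts in M2629, M2630 and M2631. For *Mylpf* and *Tnnt3* together the same sums were 206, 339 and 228 counts in the knockout libraries and 0, 0 and 2 counts in the wild-type libraries. The separation of the pair by genotype goes with how it was picked, and is a description.

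**Figure D1:**
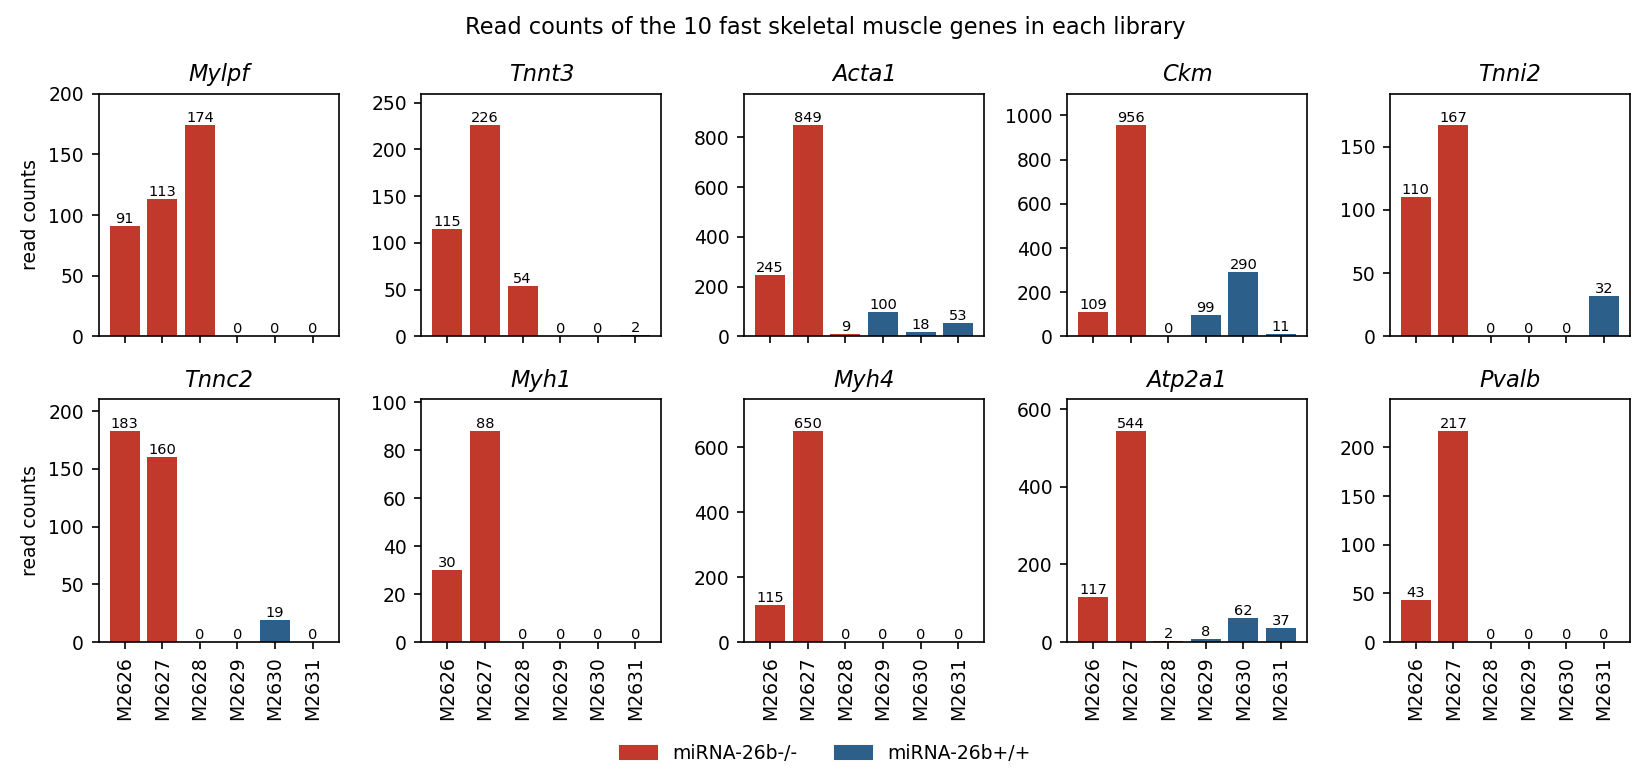
Read counts of each of the 10 genes in the 6 libraries, 1 bar per library with its count above it, red for miRNA-26b-/- and blue for miRNA-26b+/+. Each panel has its own axis from 0. M2628 holds 174 counts of *Mylpf* and 54 of *Tnnt3*, and at most 9 counts of any of the other genes.

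The genes of the thick filament differed among themselves. *Mylpf*, the fast skeletal regulatory light chain of myosin, had 91, 113 and 174 counts in M2626, M2627 and M2628 and 0 counts in each wild-type library. It was the only member with its highest level in M2628, where the level per length was 5.80 CPM per kb of counted exon, against 3.34 in M2626 and 3.17 in M2627. *Myh4*, the myosin heavy chain of IIB fibres, had 115, 650 and 0 counts in M2626, M2627 and M2628 and 0 counts in each wild-type library. *Myh1*, the heavy chain of IIX fibres, had 30, 88 and 0 counts and also 0 in each wild-type library. The light chain and both heavy chains were thus at 0 counts in the same 3 control libraries, but M2628 held the light chain without a count of either heavy chain.

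Since the 3 wild-type libraries are at 0 for these genes, only a lower bound of the fold can be given, against a floor of 3 counts in a library of average size, which is 0.102 CPM. The mean level of *Mylpf* in the knockout was 4.36 ± 1.56 CPM (SD, n = 3), at least 42.6-fold higher than in wild type. For *Myh4* it was 7.95 ± 10.1 CPM (SD, n = 3), at least 77.6-fold higher, and for *Myh1* 1.26 ± 1.31 CPM (SD, n = 3), at least 12.3-fold higher. The SD of both heavy chains exceeded their mean, and that of *Mylpf* did not. Leaving out M2627 lowered the bound of *Myh4* to 21.9 and that of *Myh1* to 5.72, and without M2628 they were 116 and 18.5. The bound of *Mylpf* stayed between 33.8 and 47.4 whichever knockout library was left out. As *Mylpf* was picked for differing between the genotypes, its steadier level over the knockout libraries can follow from that choice. It is not read as a result.

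Of the thin filament, *Acta1* and *Tnnt3* were the genes with counts in every knockout library. *Tnnt3*, the fast skeletal troponin T that anchors the complex to tropomyosin, had 115, 226 and 54 counts in M2626, M2627 and M2628 and 0, 0 and 2 counts in M2629, M2630 and M2631. The groups did not overlap. The mean levels were 4.38 ± 2.41 CPM in the knockout and 0.0220 ± 0.0382 CPM in wild type (SD, n = 3 each). With 2 counts in the wild-type group against 395, the ratio of the pooled levels was 200 with a 95% counting interval of 54.9 to 1655 (exact binomial). Without M2627 the ratio was 139, with an interval of 37.8 to 1155. As *Tnnt3* was picked on this comparison, these intervals describe counting error and are no test.

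*Tnni2*, the fast skeletal troponin I that holds the filament in its resting state, had 110, 167 and 0 counts in the knockout libraries and 0, 0 and 32 counts in the wild-type libraries. Troponin T and troponin I of fast fibres thus parted in M2628, which held 54 counts of *Tnnt3* and none of *Tnni2*, and in M2631, which held 2 of *Tnnt3* and 32 of *Tnni2*. *Tnnc2*, the fast skeletal troponin C that binds calcium, had 183, 160 and 0 counts in the knockout and 0, 19 and 0 counts in wild type. It was the only member with its highest level in M2626. The 3 subunits of the troponin complex were therefore counted together in M2626 and M2627, and in no other library. Where *Tnnc2* overlaps the gene *Ube2c*, over most of its length, its reads cannot be told from those of *Ube2c*.

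*Acta1*, the actin of skeletal muscle, had 245, 849 and 9 counts in M2626, M2627 and M2628 and 100, 18 and 53 counts in M2629, M2630 and M2631. It was counted in all 6 libraries, and M2628 held the fewest. The mean was 11.7 ± 12.6 CPM in the knockout and 1.89 ± 1.31 CPM in wild type (SD, n = 3 each), and the groups overlapped. Per length, *Acta1* averaged 4.43 CPM per kb over the 6 libraries, against 7360 CPM per kb for the smooth muscle actin *Acta2*, a ratio of 1662.

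The calcium-handling genes and the creatine kinase followed M2627. *Atp2a1*, the fast-fibre calcium pump SERCA1, had 117, 544 and 2 counts in the knockout libraries and 8, 62 and 37 in the wild-type libraries. *Pvalb*, the calcium buffer parvalbumin that speeds relaxation, had 43, 217 and 0 counts in the knockout and 0 in each wild-type library, with a mean of 2.71 ± 3.35 CPM (SD, n = 3) that is at least 26.5-fold higher than in wild type. That bound fell to 8.20 without M2627. *Ckm*, the muscle creatine kinase that buffers ATP, had 109, 956 and 0 counts in the knockout and 99, 290 and 11 in wild type. The groups overlapped for *Atp2a1*, *Pvalb* and *Ckm*, as for every member but *Mylpf* and *Tnnt3*.

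Set side by side per length, the members ranked by their mean in the knockout as *Acta1* at 7.63 CPM per kb, *Tnnc2* at 4.96, *Mylpf* at 4.10, *Ckm* at 3.74, *Tnnt3* at 2.76, *Pvalb* at 2.61, *Tnni2* at 2.06, *Atp2a1* at 1.997, *Myh4* at 1.32 and *Myh1* at 0.199. The ranges over the 3 knockout libraries overlapped between all neighbours in this order. The place of *Tnnc2* is uncertain, as its counts can hold reads of *Ube2c*. Within single libraries the order changed. The level of *Mylpf* per length was 0.537 of that of *Acta1* in M2626, 0.193 of it in M2627 and 28.0 times it in M2628. *Mylpf* also changed against *Tnnt3*, with ratios per length of 1.18, 0.745 and 4.80 in the same libraries, so these genes did not keep a fixed proportion to each other either.

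Between M2626 and M2627, in which all 10 genes were counted, the members also differed unequally. The level in M2627 over that in M2626 was 0.667 for *Tnnc2*, 0.947 for *Mylpf*, 1.16 for *Tnni2*, 1.50 for *Tnnt3*, 2.24 for *Myh1*, 2.64 for *Acta1*, 3.55 for *Atp2a1*, 3.85 for *Pvalb*, 4.31 for *Myh4* and 6.69 for *Ckm*. The troponin subunits and *Mylpf* thus kept ratios between 0.667 and 1.50, and the heavy chains, the calcium genes, *Acta1* and *Ckm* were higher in M2627. The ratio of 0.667 is that of *Tnnc2*, whose reads over most of its length cannot be told from those of *Ube2c*. Of the 10 members, 8 had their highest level in M2627, against 17% of the 16017 genes tested, and 1 in M2628, against 20%.

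**Figure D2:**
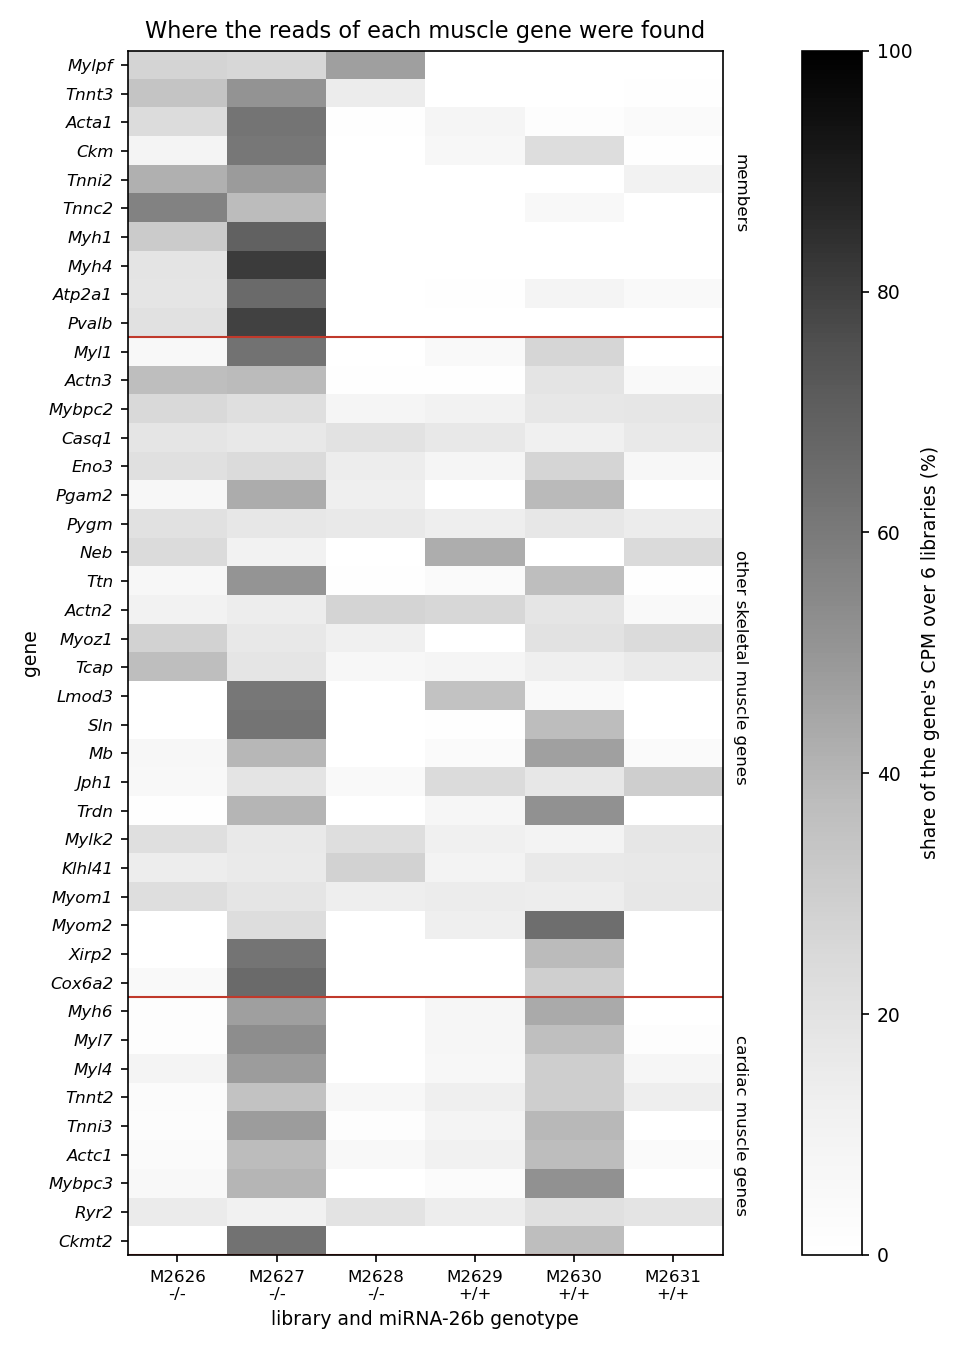
Share of each gene's CPM, summed over the 6 libraries, that lies in each library, in percent from white to black, for the 10 members, 23 other skeletal muscle genes and 9 cardiac muscle genes that passed the filter. *Mylpf* has 47.1% of its level in M2628 and *Tnnt3* 14.5%, while the other members are nearly white in that column, and many of the other genes are dark in M2627 and M2630.

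In the test over all 16017 genes that passed a filter on few counts, with the quasi-likelihood test of edgeR, all 10 members were tested and all 10 had a positive log2 fold change (knockout minus wild type), as had 51.4% of all genes. Of all genes, 6.46% reached an unadjusted p under 0.05 in either direction, 3.4% with higher and 3.07% with lower levels in the knockout, and 1 gene, no member, had an adjusted p under 0.05 (0.00624%). The groups did not overlap, with the knockout higher, for 2 of the 10 members and for 5.65% of all genes. Because the pair was chosen on this comparison and the family around it, nothing is read from these counts of members.

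For the 5 members with more than 3 counts in a wild-type library, the log2 fold changes with their standard errors were 2.68 ± 0.92 for *Acta1*, 1.38 ± 0.95 for *Ckm*, 3.11 ± 1.34 for *Tnni2*, 4.16 ± 1.48 for *Tnnc2* and 2.62 ± 1.03 for *Atp2a1*. These values leaned on single libraries. Without M2627, that of *Ckm* was -1.16 ± 1.12, that of *Acta1* 1.29 ± 0.97 and that of *Atp2a1* 0.87 ± 1.16. Without M2628, they were 1.95 ± 0.72, 3.23 ± 0.62 and 3.18 ± 0.77. Without M2631, the only wild-type library with counts of *Tnni2*, the value of that gene was 9.52 ± 3.74, and without M2630, the only one with counts of *Tnnc2*, that of *Tnnc2* was 9.87 ± 3.66. Both then stand against wild-type libraries at 0, so these values depend on the prior count and are no bounds. Without M2630 that of *Ckm* was 2.72. *Tnnc2*, *Myh1*, *Myh4* and *Pvalb* could not be tested without M2626 or without M2627, as fewer than 2 of the remaining libraries exceeded 1 CPM.

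**Figure D3:**
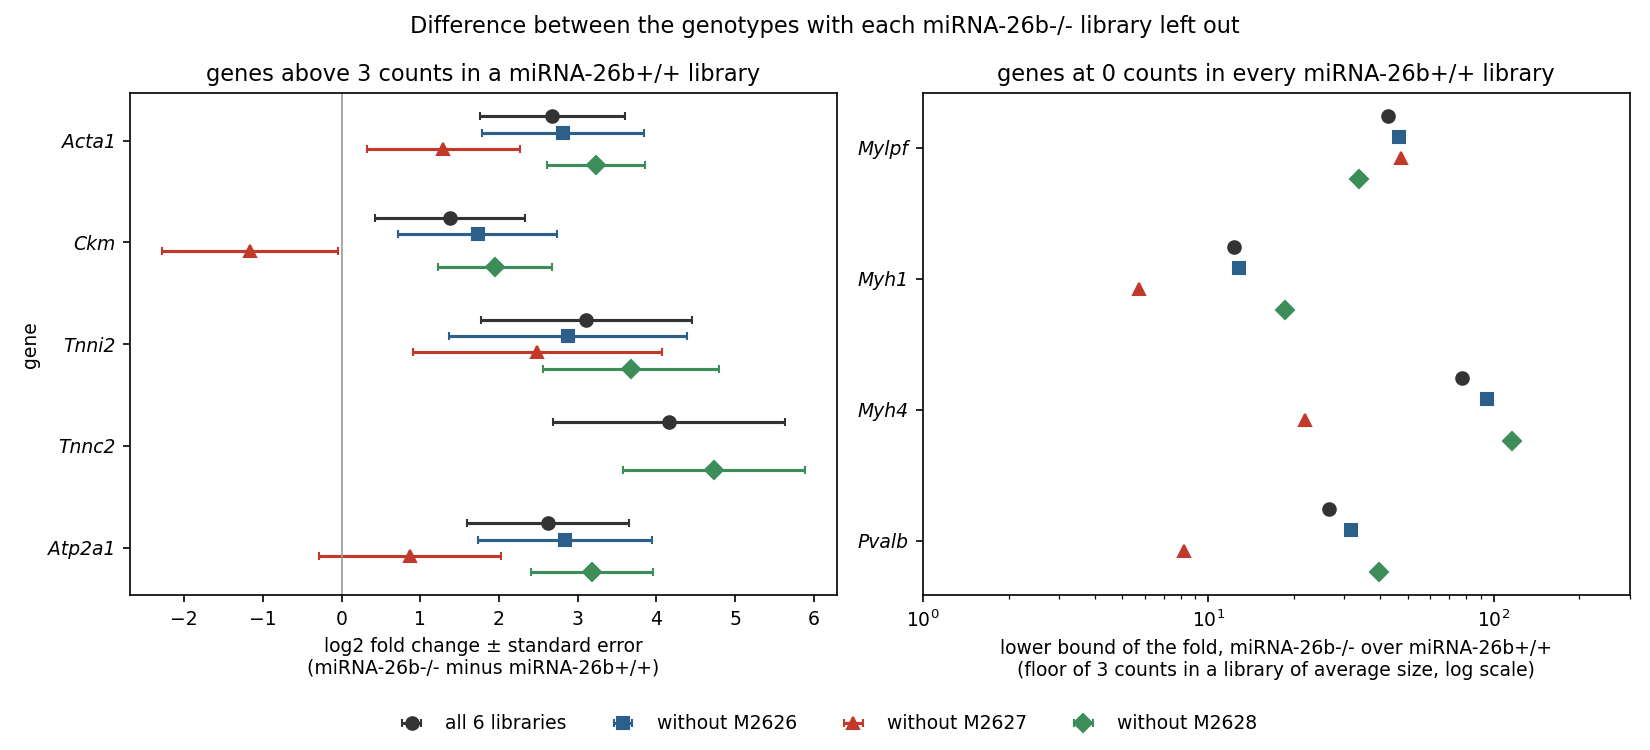
Difference between the genotypes with all 6 libraries and with each miRNA-26b-/- library left out. Left, log2 fold change with its standard error for the 5 members with more than 3 counts in a miRNA-26b+/+ library, where *Ckm* moves from 1.38 to -1.16 without M2627 and *Tnnc2* could not be tested without M2626 or M2627. Right, lower bound of the fold on a log axis for the 4 members at 0 counts in every miRNA-26b+/+ library, where that of *Mylpf* stays between 33.8 and 47.4. *Tnnt3*, with 2 counts in M2631, is in neither panel.

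The presence of *Mylpf* and *Tnnt3* in the 3 knockout libraries alone, which goes with how they were picked, can be set beside the rest of the table. Counts above 3 in each knockout library and in no wild-type library were found for 35 of the 24416 genes with a count (0.143%), *Mylpf* and *Tnnt3* among them. Counts above 3 in M2626 and M2627 alone were found for 148 genes (0.606%), with *Myh1*, *Myh4* and *Pvalb* among them. Patchy counts were common at this level. Among 2801 genes whose total lay within a factor of 2 of the 378 counts of *Mylpf*, from 189 to 756 counts, 46.6% had a library with at most 3 counts, 4.96% had at least 3 such libraries, and 6 were above 3 counts in the knockout libraries alone.

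The likeness of profiles over the 6 libraries restates the counts above, as a description over 6 points that share the genotype contrast. As *Mylpf* and *Tnnt3* were picked on that contrast, a high r between them can follow from the choice. Pearson's r of log2(CPM + 0.5) between *Mylpf* and *Tnnt3* was 0.90, which placed *Tnnt3* at rank 125 of the genes most like *Mylpf*. The r of *Mylpf* with the other 8 members was between -0.04 (*Ckm*) and 0.57 (*Myh1*), and the r of *Tnnt3* with them between 0.30 (*Ckm*) and 0.87 (*Myh1*). *Tnnt3* thus stood between *Mylpf* and the rest, as its count in M2628 was lower than in M2626 and M2627 but not 0.

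No muscle gene was among the 5 genes most like *Mylpf*. They were *Lmo1*, *Xpr1*, *Dnmt3a*, *Cdh1* and *Gm36298*, with r of 0.984 to 0.994. *Cdh1*, the epithelial adhesion gene E-cadherin, had 30, 37 and 32 counts in the knockout libraries and 0, 1 and 0 in the wild-type libraries. *Lmo1*, a LIM-domain transcription cofactor, had 204, 257 and 264 counts against 89, 91 and 83. The 5 genes most like *Tnnt3* were *Apol11b*, *Sh3glb2*, *Best3*, *Clcn2* and *Nfkbil1*, with r of 0.977 to 0.997. *Best3*, an anion channel of the bestrophin family, had 92, 118 and 57 counts against 0, 0 and 2. Of the 16017 genes tested, 134 had r over 0.9 with *Mylpf* and 127 with *Tnnt3*.

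Where the genes lie bears on what their counts hold, since a read was counted without regard to strand and for every gene whose exons it covered. *Mylpf* (ENSMUSG00000030672) lies on chromosome 7 of GRCm38 from 127208890 to 127214298 on the forward strand, with 7 exons in its longest transcript. *Tnnt3* (ENSMUSG00000061723) lies on the same chromosome and strand from 142498836 to 142516009, with 18 exons. None of the counted exon bases of *Mylpf*, *Tnnt3*, *Tnni2*, *Acta1*, *Myh4* and *Pvalb* overlapped another gene, and *Mylpf*, *Tnnt3*, *Tnni2* and *Pvalb* shared no stretch of 25 bases with another transcript. *Acta1* shares 8.67% of its 25-base stretches with other transcripts, most of them with the cytoplasmic actin *Actb*, which had 80846 to 101062 counts and did not follow *Acta1*, since M2628 held 85805 counts of *Actb* and 9 of *Acta1*.

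*Tnnc2* overlapped another gene over most of its length. Of its 800 counted bases, 592 overlap *Ube2c*, a ubiquitin-conjugating enzyme of dividing cells on the opposite strand of chromosome 2. *Ube2c* had 210, 222 and 0 counts in the knockout libraries and 39, 25 and 29 counts in the wild-type libraries. Each library held at least as many counts of *Ube2c* as of *Tnnc2*, and reads on the shared bases cannot be told apart in these counts. M2629 and M2631 held 39 and 29 counts of *Ube2c* and 0 of *Tnnc2*, so those reads lay outside the exons of *Tnnc2*. Without *Tnnc2*, the remaining 7 members beside the pair summed to 769, 3471 and 11 counts in the knockout libraries and to 207, 370 and 133 counts in the wild-type libraries.

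Partial overlaps touch 3 further members. *Ckm* shares 451 of its 2913 counted bases with *A930016O22Rik* on the opposite strand, which had 63, 413 and 0 counts in the knockout and 85, 183 and 0 in wild type. These counts were high and low in nearly the same libraries as those of *Ckm*. *Atp2a1* shares 763 of its 3477 counted bases with *Rabep2*, which had 328 to 531 counts in every library and did not follow *Atp2a1*, since M2628 held 531 counts of *Rabep2* and 2 of *Atp2a1*. *Myh1* shares 515 of 6353 counted bases with the antisense gene *Myhas*, which had 0 counts in all libraries. The heavy chains are also alike in sequence, as 48.5% of the 25-base stretches of *Myh1* and 35.7% of those of *Myh4* occur in another gene, so reads could be shared among heavy chain genes, depending on how the authors' counting treated reads with several matches.

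Of the 3 pairs of members closest to each other on a chromosome, 1 was counted in the same libraries. *Tnni2* lies 54.4 kb from *Tnnt3* on the same strand, and M2628 held 0 counts of the former and 54 of the latter. *Atp2a1* lies 746 kb from *Mylpf*, with 2 and 174 counts in that library. *Myh1* and *Myh4* are 13.5 kb apart on chromosome 11, and both were counted in M2626 and M2627 alone.

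Promoters, taken as 250 bases before to 50 bases after the RefSeq start in GRCm38.p6, were matched for 8 of the 10 members, all but *Tnnt3* and *Tnni2*. The letters searched, on both strands, were the E-box CANNTG, its form CAGCTG that myogenic factors bind, TATAAA, and the MEF2 and CArG boxes of muscle promoters. *Myh1*, *Myh4* and *Pvalb*, the members counted in M2626 and M2627 alone, each held a MEF2 match, which 3.19% of all 32851 promoters hold. In *Pvalb* the match lay at RefSeq start 1, and the window of its start 2 held none. *Mylpf*, *Acta1*, *Ckm*, *Tnnc2* and *Atp2a1* held none. *Myh1* and *Myh4*, neighbours on chromosome 11 that are alike in sequence, hold the same letters, so their matches need not be independent. The 3 genes were grouped by their counts, and whether the MEF2 matches bear on the counts was not tested. The matches are shown in capitals with their flanks, on the gene's strand, because these genes were counted in the same libraries.
Myh1 at chr11:67199881-67199910, forward strand: acaactcaaaTTATTTATAGgagattgatt
Myh4 at chr11:67237620-67237649, forward strand: ccctgtcaaaTTATTTATAGatgacaagaa
Pvalb at chr15:78206561-78206590, reverse strand: aggccaagggTTATTAATAGgcctggctca
The E-box CAGCTG was found in the promoters of *Mylpf*, *Acta1*, *Ckm*, *Myh4* and *Atp2a1*, 5 of the 8, and in 16.3% of all promoters, while CANNTG occurs in 72.3%. The windows of *Mylpf* and of its chromosomal neighbour *Atp2a1* are shown. Both carry the same 6 letters at about the same distance from the start, 51 and 55 bases before it. In M2628 these genes had 174 and 2 counts, and *Acta1*, *Ckm* and *Myh4* had 9, 0 and 0. Whether the E-box bears on these counts was not tested.
Mylpf at chr7:127211545-127211574, forward strand: cttcctgggctcCAGCTGctgcaggcctcc
Atp2a1 at chr7:126463111-126463140, reverse strand: cctcataaggacCAGCTGggggctgggggg
TATAAA was found in *Acta1*, *Myh1* and *Myh4*, with 13.6% of all promoters, and the CArG box in *Acta1* and *Myh4*, with 1.63%. The MEF2 matches of *Myh1* and *Myh4* overlap a TATAAA match on the other strand. The absence of these letters from a window says nothing about the factor.

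None of the other genes of skeletal muscle passed the test after adjustment. Of 32 further genes of the sarcomere, the sarcoplasmic reticulum and muscle energy supply, 23 were tested and 1 reached an unadjusted p under 0.05 with higher levels in the knockout and 0 with lower, against 3.4% and 3.07% of all genes. The median log2 fold change of the 23 was 0.44, with 18 positive, beside a median of 0.01 over all genes. The 1 gene was *Mylk2*, the skeletal myosin light chain kinase that phosphorylates the protein encoded by *Mylpf*, with 1027, 1012 and 1146 counts in the knockout and 695, 494 and 985 in wild type. Its log2 fold change was 0.58 ± 0.26 (SE), and its adjusted p of 0.755 in edgeR was the lowest of the list. In CPM the groups overlapped for *Mylk2*, with 30.1 CPM in M2627 and 32.5 CPM in M2631.

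The most abundant of these genes were counted in every library. *Myom1*, a protein of the M band that smooth muscle cells also express, had 262 to 422 CPM over the 6 libraries, the glycogen phosphorylase *Pygm* 90.7 to 137 CPM and the calcium store protein *Casq1* 47.2 to 80.1 CPM. Their log2 fold changes of 0.21, 0.25 and 0.32 did not pass an unadjusted p under 0.05. Of the 23 genes, 8 were highest in M2627. *Myh2*, the heavy chain of IIA fibres, had 64 counts in M2627 and 0 in all others, and *Mybpc1*, a myosin-binding protein, 56 counts there and 0 elsewhere. *Myl1*, the fast essential light chain that sits on the same myosin neck as the product of *Mylpf*, had 30, 435 and 0 counts in the knockout and 32, 150 and 0 in wild type. *Myl1* was thus at 0 in M2628, as the heavy chains were.

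None of the slow-fibre genes passed the test. Of 10, 7 were tested, 0 reached an unadjusted p under 0.05, against 6.46% of all genes, and the median log2 fold change was -0.73. Of the 7, 0 had a positive log2 fold change, against 51.4% of all genes. The heavy chain *Myh7* and *Tnni1* did not pass the filter, and both had a higher mean level in the knockout. *Myh7* had 18, 2 and 38 counts in the knockout libraries and 29, 0 and 0 in the wild-type libraries. *Tnnt1*, *Tnni1* and *Tnnc1*, the slow partners of the fast troponin genes, had 73, 34 and 39, then 35, 21 and 0, then 25, 125 and 0 counts in the knockout libraries. In the wild-type libraries *Tnnt1* had 134, 47 and 64, *Tnni1* had 0 in each and *Tnnc1* had 148, 167 and 0 counts. The calcium pump *Atp2a2*, which smooth muscle also uses, was the most abundant of the list at 1026 to 1345 CPM, followed by the tropomyosin *Tpm3* at 50.8 to 71.7 CPM and the calcium store protein *Casq2*, with 0 to 285 counts.

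Cardiac muscle genes were counted mainly in M2627 and M2630, 1 library of each genotype. Of 12, 9 were tested and 0 reached an unadjusted p under 0.05, with a median log2 fold change of 0.04. The atrial heavy chain *Myh6* had 131, 4892 and 0 counts in the knockout and 685, 3702 and 32 in wild type. The cardiac actin *Actc1* had 179, 2227 and 287 counts, then 615, 1792 and 203. The cardiac calcium release channel *Ryr2*, at 73.9 to 137 CPM, was counted in all libraries. The summed level of the 12 genes was 127, 466 and 144 CPM in the knockout and 166, 475 and 157 CPM in wild type. M2630 thus held as much of the cardiac genes as M2627, and 14.2 CPM of the 8 fast members beside the pair against 108 CPM. *Nkx2-5* and *Nppb* were at 0 in all libraries.

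Most genes of muscle precursors were at 0. The satellite cell factor *Pax7*, the myogenic factors *Myf5*, *Myod1*, *Myog* and *Myf6*, the fusion gene *Mymk*, the embryonic heavy chain *Myh3* and the receptor subunits *Chrnd* and *Chrng* had 0 counts in all 6 libraries, 9 of the 12 genes listed. The perinatal heavy chain *Myh8* had 20 and 12 counts in M2626 and M2627 and 0 elsewhere, and shares sequence with *Myh1* and *Myh4*. *Chrna1* had 0 to 178 counts, and *Des*, the desmin gene that smooth muscle also expresses, 159 to 230 CPM.

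Markers of the other cells of the vessel and its surroundings moved with some of these libraries. Of 8 sympathetic neuron genes, 7 were tested, all 7 were highest in M2627, and 3 reached an unadjusted p under 0.05 with higher levels in the knockout, against 3.4% of all genes. *Snap25*, a synaptic vesicle fusion gene, had 19, 845 and 28 counts in the knockout and 0, 69 and 0 in wild type (log2 fold change 3.66 ± 1.33, edgeR adjusted p = 0.736). *Th*, the first enzyme of noradrenaline synthesis, had 0, 1244 and 0 counts, then 0, 98 and 0 (3.62 ± 1.44, adjusted p = 0.736 in edgeR). The neuronal tubulin *Tubb3* had 14, 1676 and 44 counts, then 0, 245 and 0 (2.76 ± 1.21, adjusted p = 0.745 in edgeR). None of the list passed adjustment. Without M2627 the log2 fold change of *Tubb3* was -1.37. *Uchl1* and *Stmn2*, also listed, were counted in all libraries at 49.3 to 120 CPM and 6.41 to 39.6 CPM, and *Dbh* had 2892 counts in M2627, 413 in M2630 and 0 elsewhere.

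The summed sympathetic level was 93.8, 393 and 59.7 CPM in the knockout and 95.8, 153 and 109 CPM in wild type. The summed level of 9 brown fat genes was 251, 625 and 296 CPM in the knockout and 377, 622 and 206 CPM in wild type, and that of 6 white and general adipocyte genes 734, 1594 and 499 CPM, then 822, 1148 and 411 CPM. Neither fat list had a gene with an unadjusted p under 0.05. *Ucp1*, the uncoupling protein of brown fat, had 29.6 to 213 CPM, *Dio2* 35.0 to 150 CPM and *Pdk4* 29.2 to 196 CPM, while *Fabp4* had 242 to 946 CPM, *Cidec* 37.2 to 220 CPM and *Plin1* 52.0 to 182 CPM. M2627 was the highest library for both fat lists, the sympathetic list and the 8 fast members beside the pair, and M2630 was the next for the sympathetic and fat lists. M2626, the next for the 8 fast members, was not among the 3 highest libraries in any of these lists.

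**Figure D4:**
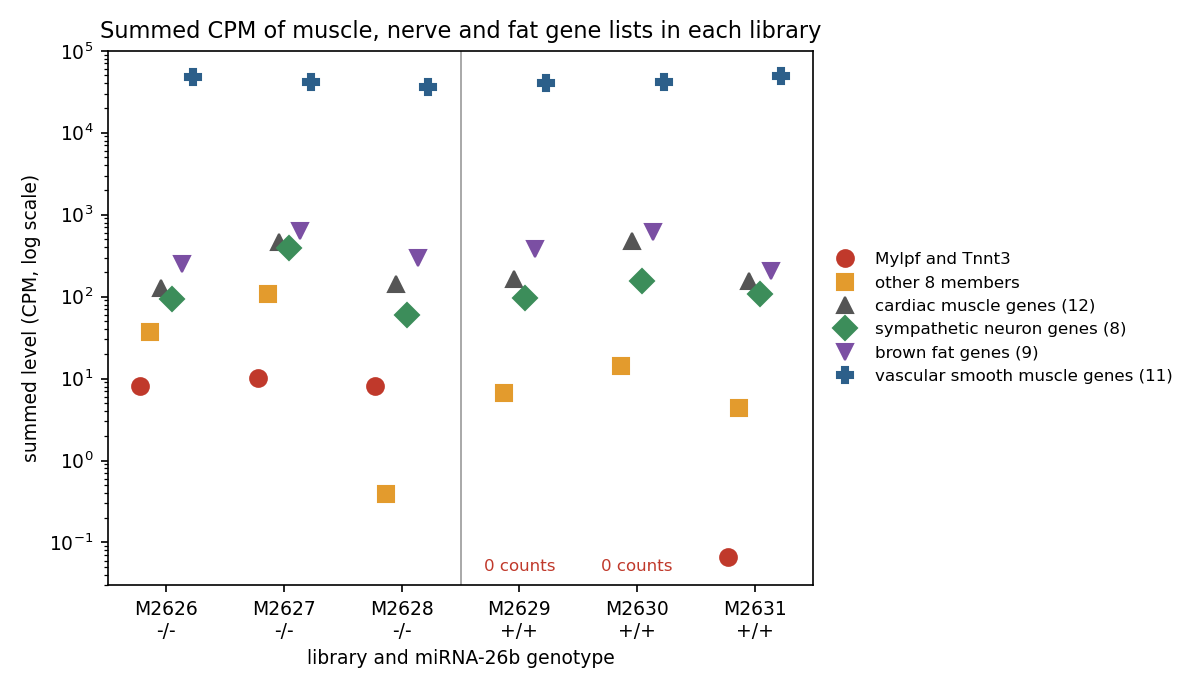
Summed level of gene lists in each library, in CPM on a log axis, with the number of genes in brackets, where the points of a library are set side by side. *Mylpf* and *Tnnt3* lie at 8.04 to 10.1 CPM in the 3 miRNA-26b-/- libraries and at 0 counts in M2629 and M2630, while the other 8 members range from 0.390 CPM in M2628 to 108 CPM in M2627.

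The summed level of the endothelial genes was low in the libraries that held all 10 fast muscle genes, at 520 and 524 CPM in M2626 and M2627 against 1237 to 1772 CPM in the other 4 libraries. Of the 8 genes, 5 were lower in both of these libraries than in every other, *Pecam1*, *Vwf*, *Cdh5*, *Tek* and *Tie1*. The other 3, which like *Tie1* are named after their values were seen, were not. The share of all genes lower in both libraries than in every other was not counted, so this count is a description. The receptor *Kdr* had 29.6 CPM in M2627 and 8.82 to 31.7 CPM in the other libraries, M2626 included, the transcription factor *Erg* 75.3 and 59.2 CPM in M2626 and M2627 against 62.1 to 97.8 CPM, and the secreted factor *Egfl7* 38.3 and 24.6 CPM against 31.2 to 49.3 CPM. In the comparison of the genotypes *Tek*, the angiopoietin receptor, reached an unadjusted p under 0.05 with a log2 fold change of -0.998 ± 0.437 (adjusted p = 0.745 in edgeR). The others, with *Vwf* at 103 to 603 CPM and *Cdh5* at 46.1 to 120 CPM, did not. Of 11 vascular smooth muscle genes, *Myocd*, the coactivator that drives smooth muscle genes, was lower in the knockout by unadjusted p (log2 fold change -0.96 ± 0.20, edgeR adjusted p = 0.453), and *Acta2*, *Myh11* at 7728 to 12103 CPM and *Tagln* at 5850 to 7917 CPM did not pass. M2628 stood apart in fibroblast genes, with 8034 CPM summed over 6 genes against 4401 to 5487 CPM in the other libraries. None of the 6 reached an unadjusted p under 0.05, with *Col1a1* at 2261 to 4732 CPM, *Dcn* at 1032 to 1839 CPM and *Pi16* at 379 to 630 CPM. The part of these marker levels in the counts of the fast skeletal muscle genes was not tested.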

How the data were processed

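Per the labels, total RNA of 6 mouse aortic samples was sequenced, 3 of each genotype. The authors aligned reads with STAR to GRCm38 and deposited read counts per gene symbol made by featureCounts 1.6.4 over exons, ignoring strand, where a read on exons of more than 1 gene added to each gene. The methods name GENCODE release M23, the file header release M21. A deposited table of the authors' own comparison (log2 CPM, fold changes and p-values) was not used here.

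The 10 members and all lists were chosen with earlier results of these data known. Genes were kept where the counts summed to 2 or more and where 2 or more libraries exceeded 1 CPM. They were normalized by TMM and tested, two-sided, in edgeR 4.0.16 under R 4.3.3 by quasi-likelihood (prior count 0.125), with Benjamini-Hochberg adjustment over all 16017 genes tested. The genes named are the members, from each list the genes with an unadjusted p under 0.05 (at most 6) and the 3 most abundant, and the 5 genes most like *Mylpf* and *Tnnt3*. *Myh2*, *Mybpc1*, *Myl1*, *Myh7*, the slow troponins and genes named as being at 0 were added after their values were seen, as were the overlapping genes. No library held counts identical to another. Nothing states that libraries are from separate litters, so p-values measure the spread between these samples. With 3 against 3 libraries an exact permutation test cannot go below p = 0.1, so none was run. Floors and intervals cover counting error only, as reads are not independent molecules. Alternatives were library size, upper quartile or DESeq2 scaling, DESeq2 1.42.0, voom of limma 3.58.1, other filters, a prior count of 2 and leaving out each library. The procedure was tested on simulated data. Sequences are from RefSeq, and positions and UTRs from the GENCODE annotation of GRCm38.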

Additional observations from a re-analysis of the deposited data

How the results depend on the processing

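The genes with an unadjusted p under 0.05 numbered 1035, and 686 to 1692 when 1 library was left out, the highest without M2628 and the lowest without M2631. The members were chosen on this comparison, so their counts are a description. Of the 10 members tested, 9 were counted at this threshold, beside 6.46% of all genes. With limma voom they were 2 (*Mylpf* and *Tnnt3*), beside 5.29%. When 1 library was left out, the lowest was 2 of 6 tested without M2627, beside 5.75% of all genes. The highest was 10 of 10 without M2628, beside 10.8%. Without M2626 they were 4 of 6, beside 5.76%. The other skeletal muscle genes numbered 1, 0 with DESeq2, and 0 to 3 when 1 library was left out (0 without M2626 or M2629, 3 without M2627, M2628 or M2630). Without M2627, 1 was higher and 2 were lower in the knockout, of 17 tested, beside 5.75% of all genes. Without M2628 or M2630 all 3 were higher, of 23 and 18 tested, beside 10.8% and 4.97%. The log2 fold change of *Ckm* was -0.55 with limma voom and -1.16 (without M2627) to 2.72 (without M2630) when 1 library was left out, and that of *Tubb3* -1.37 (without M2627) to 12.13 (without M2630). Without M2630, *Tubb3* stands against wild-type libraries at 0 counts, so that value depends on the prior count and is no bound. The cause of the other shifts was not tested, beyond the fewer libraries. Members with an adjusted p under 0.05 numbered 0, beside 1 of all 16017 genes. With DESeq2 they numbered 3 (*Mylpf*, *Tnnt3* and *Pvalb*), beside 57 of 16017 genes. Without M2628 they numbered 2 (*Acta1* and *Myh4*), beside 82 of 15654 genes. The earlier quasi-likelihood method of edgeR, added after seeing the data, gave 802 genes and 6 members. No paired analysis was possible because the labels give no replicate numbers or pairing. Differences of a few counts were not detectable at this depth, since 3 counts are 0.0900 to 0.117 CPM.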
